A study of Mus musculus with 32 samples.

Results

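Quadriceps muscle of wild-type female mice was compared at 25 and at 5 weeks of age, 4 libraries against 4. These 8 libraries, chosen by their titles, are 8 of the 32 in the series, and all 53801 gene identifiers of the deposited tables were considered. The wild-type (WT) females came from heterozygous parents of a line that carries a knockout (KOMP) allele of Col6a2, made on C57BL/6N and backcrossed for 5 generations to C57BL/6J. All groups share that mixed substrain background. The comparison groups used further below were WT males at 5 and 25 weeks and Col6a2-/- females at 5 and 25 weeks, which are homozygous for the knockout allele, again with 4 libraries each; the protocol gives 4 mice for each group. RNA was taken from cryosections of whole frozen quadriceps, so fibres, connective tissue, vessels, nerve, blood and fat were sampled together. Nothing in the labels says which same-numbered mice shared a litter or day.

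Between these ages a mouse passes from the end of rapid growth to full adulthood. A growing muscle deposits collagen in the sheaths around its fibres, made by fibroblasts and laid down with enzymes that fold and cross-link the chains. Its fibres exchange developmental isoforms of contractile proteins for adult ones. Protein turnover in the adult fibre is carried by ubiquitin ligases, autophagy and chaperones, several of them targets of FoxO transcription factors.

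Values are TPM (a share of all transcripts, scaled for transcript length and for the total of each library). A difference is given as the log2 change from 5 to 25 weeks on the log2(TPM + 1) scale, which understates the change of low genes, and a gene is said to have risen or fallen where limma's Benjamini-Hochberg adjusted p was under 0.05. Tested were the 12817 genes that reached 1 TPM in 4 or more of the 32 libraries, and 236 passed, which is 1.84%. Of these, 151 rose, 1.18% of those tested, and 85 fell, 0.663%. The split depended on scaling: with median-of-ratios size factors 282 rose and 303 fell, and with quantile normalization 255 rose and 268 fell. With array weights 1113 genes passed. Without 5-week replicate 1, 3 or 4 there were 149, 128 and 138 calls, and without 25-week replicate 1 there were 132. The change was 2-fold or more for 45, of which 21 rose and 24 fell. Over all genes tested the median log2 change was 0.06, and 8147 genes had a positive value. At an unadjusted p under 0.05 there were 1631 genes. The 4 libraries of one age lay wholly above the 4 of the other for 1373 genes, 10.7% of those tested. Most of the called genes, 192, were protein-coding.

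**Figure D1:**
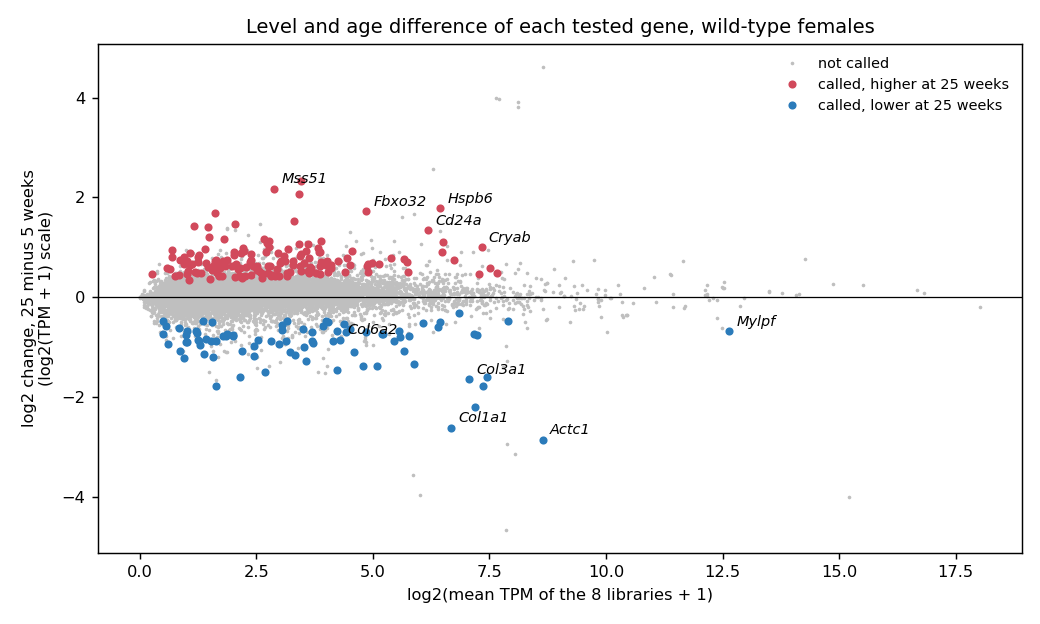
Each point is 1 of the 12817 genes tested. The horizontal axis is the log2 of the mean TPM of the 8 libraries plus 1, the vertical axis the log2 change from 5 to 25 weeks, and the coloured points are the 151 genes that rose and the 85 that fell. Actc1 is the lowest coloured point, and Col1a1 and Col1a2 are among the low ones. The grey points far from 0 at high levels are small RNA genes that lie on each other and are listed near 0 in some libraries.

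The tissue label was checked against markers. The 10 listed markers of skeletal muscle fibres had a summed level of 26310 to 31120 TPM at 5 weeks and 26830 to 29060 TPM at 25 weeks, and none was called. Of the 7 cardiomyocyte markers only Myh6 was tested, and Myl7, Nppa and Nppb were at 0 in all 8 libraries. The mitochondrial chromosome held 36.4 to 42.6% of TPM at 5 weeks and 33.8 to 38.1% at 25 weeks (exact permutation test, two-sided, p = 0.4, n = 4 and 4). The 7SL RNA genes Rn7s1, Rn7s2 and Rn7s6 held 21.9 to 25.2% and 24.1 to 27.5% (exact permutation test, p = 0.114, n = 4 and 4). Depth inferred from coverage and FPKM was 7.29 to 12.7 gigabases at 5 weeks and 6.87 to 10.4 gigabases at 25 weeks (exact permutation test, p = 0.0571, smallest possible 0.0286, n = 4 and 4). A small RNA gene on Rn7s2, Gm47299, was listed near 0 in 5-week replicate 2 and in 25-week replicates 1 and 2, and at 50254 to 66324 TPM in the other 5 libraries, which moves the scale of every other gene in a library. 5-week replicate 2 also stood apart from the other 7 on the second principal component, at 27.3 against at most 10.8.

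The largest fall of any called gene on the log2(TPM + 1) scale was that of Actc1, alpha cardiac actin, the actin of the heart and of developing skeletal muscle, which lies at chr2:114047282-114053548. Its level was 464, 551, 799 and 978 TPM in 5-week replicates 1 to 4 and 78.0, 162, 49.5 and 109 TPM at 25 weeks. The groups did not overlap, and the lowest young library was above the highest adult one by a wide margin. The log2 change was -2.86 ± 0.36 (SE, limma adjusted p = 2.96e-05). C130080G10Rik, annotated as an antisense transcript and lying just upstream of Actc1 without shared exons, fell from 3.88 ± 1.93 to 0.357 ± 0.251 TPM (SD, n = 4 and 4) (log2 change -1.77). Whether the counting used strand is not given in the sources used here. Acta1, the actin of adult skeletal muscle, stood at 7888 ± 576 TPM at 5 weeks and 7012 ± 561 TPM at 25 weeks and was not called (log2 change -0.17 ± 0.12, adjusted p = 0.618 by limma).

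Stretches before the RefSeq starts of these actin genes are shown because one actin fell and the other did not, and both hold the motif through which serum response factor is known to act on muscle actins. They are RefSeq sequences on GRCm38.p6, read 5′ to 3′ on the gene's minus strand, from the window of 250 bases before the RefSeq start and trimmed to bases outside every GENCODE exon. The Actc1 stretch is chr2:114052888-114053125, 238 bases, and lies inside the gene span given above, since GENCODE also holds a transcript that starts farther upstream and in which it is intronic; the Acta1 stretch is chr8:123894776-123895025. Capitals mark the CArG box, searched by its consensus, which reads the same on both strands.
Actc1: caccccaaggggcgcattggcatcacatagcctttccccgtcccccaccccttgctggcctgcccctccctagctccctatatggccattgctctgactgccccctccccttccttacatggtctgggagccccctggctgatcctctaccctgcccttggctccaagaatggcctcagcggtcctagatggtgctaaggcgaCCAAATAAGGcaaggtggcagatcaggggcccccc
Acta1: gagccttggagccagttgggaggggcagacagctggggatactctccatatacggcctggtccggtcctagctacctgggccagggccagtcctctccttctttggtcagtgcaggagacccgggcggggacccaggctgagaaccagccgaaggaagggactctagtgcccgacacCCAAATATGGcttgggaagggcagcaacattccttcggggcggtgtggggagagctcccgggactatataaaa
The genes and the motif were chosen after the results were seen, from 8 promoter windows looked at. Each stretch held 1 match, and 1.47% of the 32851 windows of the RefSeq table held at least 1. A match is a description of the letters and does not show that a factor bound there.

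The other tested genes of the developmental and embryonic sarcomere list did not follow Actc1. Of 10 tested genes of that list, Actc1 was the only one called, and 5 were positive and 5 negative. The list's median of 0.01 changed sign under some alternatives. Its highest value was 0.98, and 1 gene was higher in every adult library, against 6.96% of all genes. With size factors, array weights or the 8 libraries fitted alone, 1 was called higher. Myh3, embryonic myosin, was 1.59 ± 0.17 TPM at 5 weeks and 1.34 ± 0.09 TPM at 25 weeks (log2 change -0.15, not called). Myh8, perinatal myosin, was 109 ± 8.92 and 113 ± 5.68 TPM. Neither myosin was called.

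Fibrillar collagens form the tensile fibres of connective tissue. All 9 tested members were lower at 25 weeks in every library than in any 5-week library, against 3.75% of all genes tested, and 5 of the 9 passed the test, against 0.663%. Without 5-week replicate 3 or 4, or 25-week replicate 1, 3 of the 9 were called. The list's median log2 change was -1.11, beside 0.06 over all genes. Col1a1, which with Col1a2 makes type I collagen, lies at chr11:94936224-94953042 and had 82.2, 120, 238 and 261 TPM at 5 weeks and 9.42, 24.4, 33.5 and 47.1 TPM at 25 weeks. The groups did not overlap, and both were wide, since Col1a1 differed more than 3-fold among young libraries. Its log2 change was -2.62 ± 0.49 (SE, limma adjusted p = 0.00264). Col1a2 was less spread, at 172.5, 216, 265 and 297 TPM against 27.2, 53.6, 62.9 and 64.7 TPM, and changed by -2.21 ± 0.37 (adjusted p = 0.000859, limma). Here too every adult library was below every young one.

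Col3a1, the chain of type III collagen in reticular fibres, had 165, 151, 211 and 282 TPM at 5 weeks and 54.8, 57.4, 69.8 and 67.0 TPM at 25 weeks (log2 change -1.65 ± 0.31, limma adjusted p = 0.00278). Its adult libraries lay close together and its young ones did not. Gm47302, a small RNA gene that lies wholly inside Col3a1, fell by 1.79 on the log2 scale, and its reads cannot be separated from those of Col3a1. Col5a1, a type V chain that starts collagen fibrils, fell from 11.9 ± 3.40 to 4.92 ± 0.96 TPM (log2 change -1.10, adjusted p = 0.0143 by limma), a call lost without 5-week replicate 3 or 4 or 25-week replicate 1, with adjusted p up to 0.082 over all alternatives. Col2a1, the cartilage collagen, fell from 1.01 ± 0.30 to 0.0345 ± 0.0190 TPM, a call lost on leaving out any of 7 single libraries (adjusted p up to 0.112 by limma over all alternatives). Col5a2 had 23.4 ± 5.99 and 12.4 ± 1.67 TPM and missed the test (adjusted p = 0.105, limma), as did Col11a1 at 3.90 ± 0.85 and 1.29 ± 0.48 TPM (adjusted p = 0.131, limma).

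**Figure D2:**
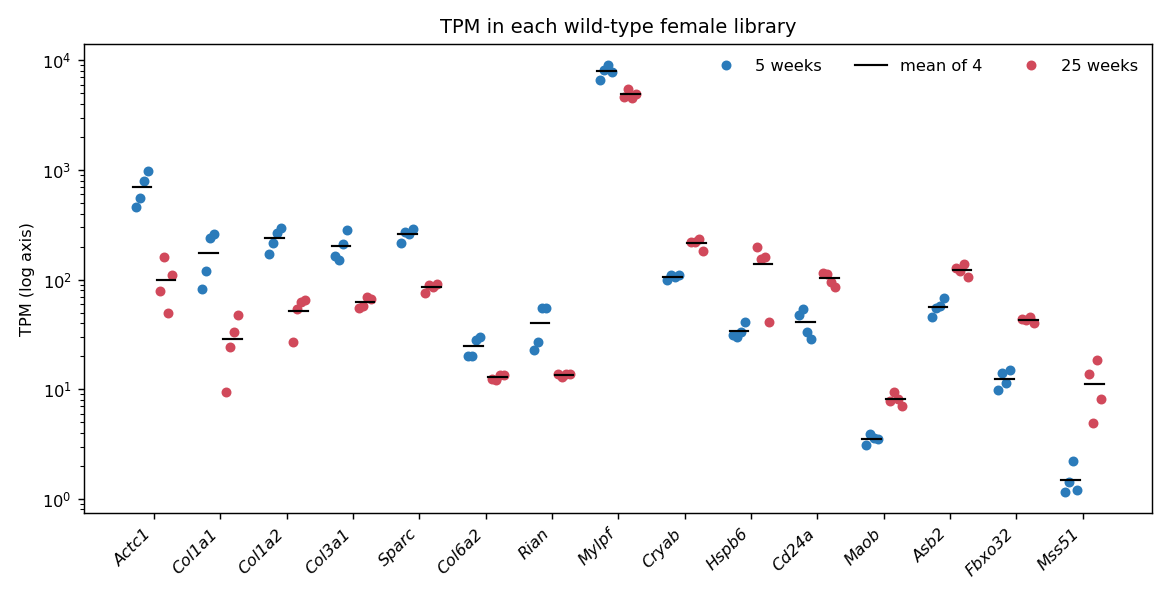
TPM of 15 genes on a log axis, with 1 point for each of the 4 WT female libraries at 5 weeks (blue) and at 25 weeks (red) and a line at the mean of 4. The genes on the left fell and those on the right rose. The colours overlap for Hspb6 only, where 25-week replicate 4 is at 40.9 TPM.

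Collagen VI, the beaded microfibril around each fibre whose Col6a2 chain is deleted elsewhere in this study, followed the same direction at smaller size. Col6a2, at chr10:76595762-76623630, had 19.9, 19.9, 28.2 and 30.2 TPM at 5 weeks and 12.3, 12.2, 13.6 and 13.5 TPM at 25 weeks. No libraries overlapped, and the adult values were nearly equal. The log2 change was -0.85 ± 0.13 (SE, limma adjusted p = 0.000491). Col6a3 fell from 32.2 ± 8.03 to 14.3 ± 1.01 TPM (log2 change -1.09, adjusted p = 0.0355, limma), but was not called with the replicate block or on leaving out any of 6 single libraries (adjusted p up to 0.144 over all alternatives). Col6a1 went from 35.3 ± 3.75 to 19.4 ± 2.18 TPM without passing the test (adjusted p = 0.106, limma), and Col6a6 from 1.88 ± 0.42 to 0.681 ± 0.236 TPM (adjusted p = 0.145, limma). All 4 tested collagen VI genes were lower in every adult library.

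Across the collagen lists together, counting Col4a1, Col4a2, Col4a5 and Col18a1 of the basement membrane list, 27 genes were tested, and all 27 had a negative log2 change. Of these 11 were called, against 0.663% of all genes, and 20 were lower without overlap between the ages, against 3.75%. Leaving out 5-week replicate 4 left calls for 3 fibrillar collagens, 1 collagen VI chain, 0 other interstitial collagens and 1 gene of the basement membrane list. With array weights these counts were 9, 4, 4 and 7. Without 25-week replicate 4, 1 of the interstitial collagens was positive. Of the 10 other interstitial collagens, Col15a1, a collagen next to the basement membrane, was called, from 15.9 ± 5.14 to 7.88 ± 0.61 TPM (log2 change -0.88, limma adjusted p = 0.0355), a call lost on leaving out any of 6 single libraries, with adjusted p up to 0.172 over all alternatives.

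Basement membranes, the sheets that wrap each fibre and vessel, had 13 genes tested and 4 called, all lower, against 0.663% of all genes, with a median of -0.54. Col4a1 fell from 45.5 ± 11.0 to 26.5 ± 4.06 TPM and Col4a2, its partner chain, from 22.2 ± 4.25 to 13.4 ± 1.89 TPM. Col4a5 fell from 2.75 ± 0.40 to 1.04 ± 0.25 TPM, and Nid1, nidogen, which links laminin to collagen IV, from 26.9 ± 2.37 to 16.9 ± 1.07 TPM. Lama2, the laminin chain of the muscle fibre, was 13.0 ± 1.71 and 9.34 ± 1.06 TPM and was not called (adjusted p = 0.39 by limma). Leaving out single libraries ended the call of Nid1 in each of 8 cases, of Col4a1 in 7 and of Col4a2 in 4, and over all alternatives their adjusted p reached 0.155, 0.175 and 0.125.

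Enzymes that fold and cross-link collagen gave 2 calls among 22 genes tested, both lower, against 0.663% of all genes, with a median of -0.33. With size factors and with quantile normalization 7 were called lower, and with array weights 6. Loxl2, a lysyl oxidase that cross-links collagen, fell from 8.12 ± 0.70 to 3.94 ± 0.46 TPM (log2 change -0.89, limma adjusted p = 0.0330). Adamts2, the protease that trims the ends of procollagens, fell from 4.08 ± 0.61 to 1.98 ± 0.14 TPM (log2 change -0.76, limma adjusted p = 0.0345). Both calls were lost on leaving out any 1 of the 8 libraries, and over all alternatives the adjusted p reached 0.112 for Loxl2 and 0.135 for Adamts2. Serpinh1, the collagen chaperone, was 41.0 ± 13.8 and 20.8 ± 7.51 TPM, with overlapping libraries (adjusted p = 0.105, limma).

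Of 30 tested elastic fibre, proteoglycan and matricellular genes, 2 were called, both lower, against 0.663% of all genes, and the median was -0.20. Sparc, osteonectin, which binds collagen as it is laid down, had 217, 273, 263 and 290 TPM at 5 weeks and 76.1, 88.7, 85.9 and 90.5 TPM at 25 weeks (log2 change -1.60 ± 0.25, limma adjusted p = 0.00055). Its values were tight at both ages and far apart. Mfap2, a microfibril glycoprotein, fell from 2.58 ± 0.30 to 0.635 ± 0.201 TPM. Dcn, decorin, the abundant small proteoglycan of the same fibroblasts, was 260 ± 43.3 and 265 ± 40.4 TPM (log2 change 0.03 ± 0.22).

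Markers of the cells that make matrix were read beside these falls. Of 13 fibroblast and fibro-adipogenic progenitor markers, 1 was called, Col15a1, itself a collagen, and the list's median was -0.08, with -0.149 to -0.0243 over the alternatives. Their summed level was 696 to 840 TPM at 5 weeks and 614 to 863 TPM at 25 weeks. Pdgfra, which marks these progenitors, was 9.57 ± 0.81 and 9.91 ± 0.57 TPM. Of the 10 tenocyte markers none was called, with a median of -0.32 and summed levels of 129 to 233 and 87.9 to 198 TPM. In whole muscle, fewer cells of a type and less RNA of a gene per cell cannot be told apart, and the part of cell numbers in the collagen values was not tested.

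**Figure D3:**
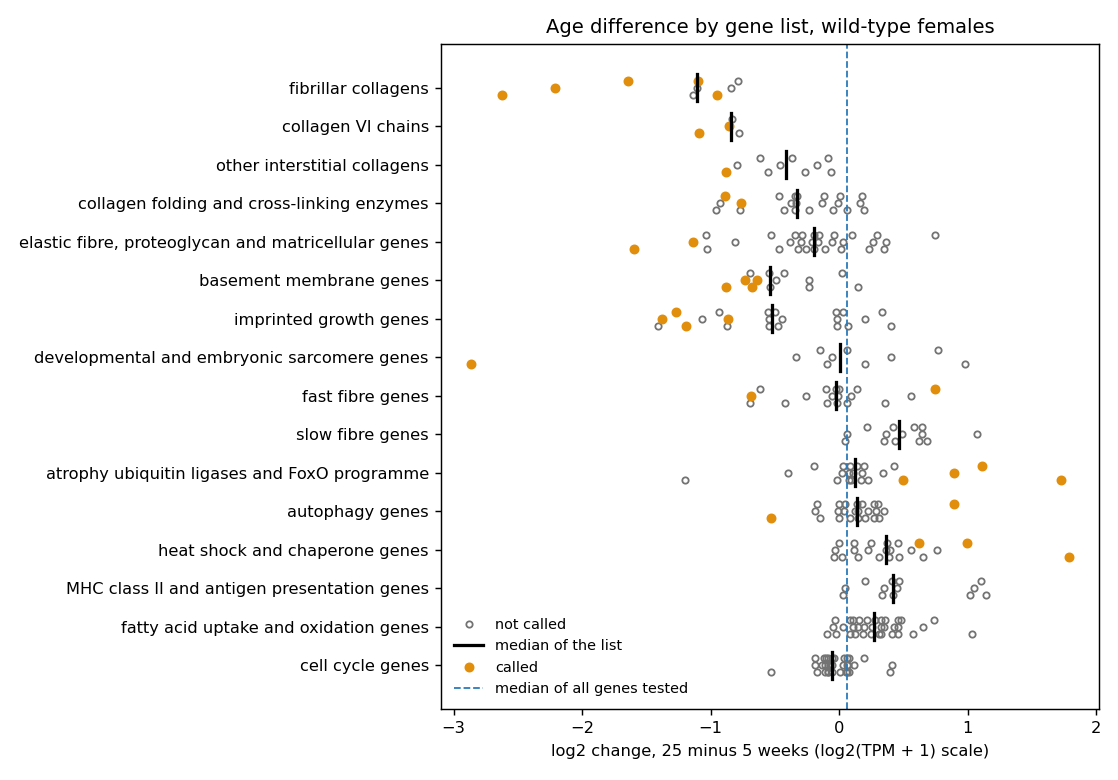
The log2 change of every tested gene of 16 lists, with filled points for called genes, open points for the others, a black bar at each list's median and a dashed line at the median of all genes tested, 0.06. The 3 lists of collagens lie wholly to the left of 0, with medians of -1.11, -0.84 and -0.41.

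A network of imprinted genes is known to be high in growing tissue and to decline after birth. Of 22 tested, 4 were called, all lower, against 0.663% of all genes, 18 did not pass the test, and the median was -0.52. Rian, a long noncoding RNA of the Dlk1-Dio3 domain at chr12:109603940-109661716, had 22.7, 26.9, 55.5 and 54.7 TPM at 5 weeks and 13.7, 12.9, 13.9 and 13.8 TPM at 25 weeks (log2 change -1.38 ± 0.32, limma adjusted p = 0.0144). The young libraries split into a lower and a higher pair, and the adult ones were almost identical. Meg3, from the same domain, fell from 15.8 ± 5.14 to 5.78 ± 1.07 TPM, and Mirg, also from it, from 3.18 ± 1.33 to 0.785 ± 0.334 TPM. Plagl1, an imprinted zinc finger factor, fell from 2.10 ± 0.67 to 0.669 ± 0.118 TPM. H19 stood at 292, 330, 241 and 389 TPM against 228, 76.9, 97.9 and 104 TPM, without overlap but with adjusted p = 0.0694 by limma. Without 5-week replicate 4 none of the list was called, and without 5-week replicate 3 there was 1 call. With size factors 10 were called lower and with quantile normalization 8. With the 8 libraries fitted alone, and with array weights, 11 were called lower. Over all alternatives the adjusted p reached 0.0912 for Rian, 0.0673 for Meg3, 0.104 for Mirg and 0.0811 for Plagl1. In Rian, as in Col1a1, 5-week replicates 3 and 4 were the high ones.

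In the growth hormone and IGF axis, 1 of 19 tested genes was called, lower, against 0.663% of all genes. Of the 19, 12 were negative and 7 positive, the highest at 1.008. The list's median of -0.05 changed sign without 25-week replicate 4. Igfbp3, which carries IGF in blood, fell from 9.38 ± 1.91 to 4.40 ± 0.87 TPM (log2 change -0.94 ± 0.18, limma adjusted p = 0.00381). Igf1 was 9.77 ± 2.24 and 5.19 ± 0.64 TPM, lower in every adult library (adjusted p = 0.107, limma), and Igf2 was 4.37 ± 1.21 and 1.90 ± 0.36 TPM (adjusted p = 0.177, limma). Socs2 went the other way, from 3.0018 to 5.07 TPM at 5 weeks to 4.43 to 13.9 TPM at 25 weeks. Its ages overlapped, and it was not called. With a 5 TPM filter, size factors, quantile normalization or array weights, 1 gene of the list was called higher. Leaving out 5-week replicate 2 or 25-week replicate 3 gave the same count.

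Further genes fell, with more spread in some than in others. Mylpf, the regulatory light chain of fast myosin, was among the most abundant transcripts and had 6573, 8219, 9017 and 7878 TPM at 5 weeks and 4645, 5447, 4521 and 4970 TPM at 25 weeks (log2 change -0.69 ± 0.15, limma adjusted p = 0.00719). The ages did not overlap, and this was the largest fall in TPM among called genes. Its processed copy Mylf-ps is also called, and reads may be shared between the pair. Cav3, caveolin of the muscle membrane, had 22.9, 25.8, 24.3 and 29.1 TPM against 15.3, 15.8, 14.8 and 15.1 TPM (log2 change -0.70 ± 0.11, adjusted p = 0.000491, limma). Hacd1, an acyl-CoA dehydratase of muscle, fell from 67.3 ± 7.40 to 31.7 ± 6.41 TPM, Aqp4, the water channel of fast fibres, from 12.9 ± 4.05 to 5.09 ± 0.50 TPM, and Itm2a, a membrane protein on the X chromosome, from 83.2 ± 10.3 to 32.65 ± 7.36 TPM. Nrep fell from 47.6 ± 8.35 to 18.6 ± 7.62 TPM. The noncoding RNAs A930003A15Rik (log2 change -1.61), B230312C02Rik (-1.46) and Gm5111 (-1.08) fell too, as did Gm26130 (-1.49), a small nucleolar RNA inside Tcp1 whose reads cannot be separated from it. B230312C02Rik and Gm26130 were not called when the 8 libraries were fitted alone (adjusted p = 0.0581 and 0.0807 by limma). Of 157 tested small nucleolar RNA genes 10 were called, all lower, against 0.663% of all genes.

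Few fibre type genes were called. Of 18 fast fibre genes, Mylpf fell and Mylk2 rose, and the median was -0.02, which changed sign under some alternatives. With a 5 TPM filter, size factors, quantile normalization, array weights or the 8 libraries fitted alone, 3 were called lower. Rescaling without mitochondrial and 7SL genes gave the same count. Mylk2, the kinase of the fast light chain, had 75.0, 100, 67.9 and 72.9 TPM at 5 weeks and 128, 140, 149 and 112 TPM at 25 weeks (log2 change 0.74 ± 0.16, adjusted p = 0.00719, limma), so the kinase and its substrate changed in opposite directions. Myh4, myosin of the fastest fibres, was 4510 ± 487 and 4700 ± 226 TPM. None of 14 slow fibre genes was called. All 14 had positive values, against 63.6% of all genes, with a median of 0.46. That median was 0.228 without 5-week replicate 1 and 0.77 without 5-week replicate 2, and 12 of the 14 were positive without 5-week replicate 3, without 25-week replicate 2 and under size-factor or quantile scaling. Myh7, slow myosin, was 27.7, 98.9, 46.6 and 42.6 TPM at 5 weeks and 80.8, 92.1, 36.4 and 80.0 TPM at 25 weeks. The high young library was replicate 2 and the low adult one replicate 3, so the ages overlapped, and no slow fibre gene separated them.

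Among the rises, the ubiquitin ligase Fbxo32 (atrogin-1), a FoxO target of muscle at chr15:58175879-58214932, had the smallest p of the genes that rose. It had 9.77, 14.1, 11.3 and 14.9 TPM at 5 weeks and 43.6, 43.2, 45.9 and 40.3 TPM at 25 weeks. The adult values were nearly equal and all far above the young ones. The log2 change was 1.73 ± 0.20 (SE, limma adjusted p = 1.55e-05). Asb2, the substrate receptor of another muscle ubiquitin ligase, had 45.8, 55.1, 57.2 and 68.6 TPM against 128, 121, 138 and 105 TPM (log2 change 1.11 ± 0.22, adjusted p = 0.00391, limma). Fbxo40, a muscle F-box protein, rose from 43.8 ± 4.29 to 62.2 ± 4.62 TPM, and Eda2r, a receptor of the TNF receptor family, from 2.17 ± 0.33 to 4.86 ± 0.47 TPM. These were the 4 calls among 22 genes of the atrophy list, against 1.18% of all genes, and the list's median was 0.12. Of the 22, 4 were negative, the lowest at -1.197, and 1 was lower in every adult library, against 3.75% of all genes. With size factors, quantile normalization, array weights or the 8 libraries fitted alone, 1 was called lower. Trim63 (MuRF1), the other classical atrophy ligase, was 42.2 ± 9.38 and 56.2 ± 2.64 TPM with overlapping libraries (log2 change 0.43, adjusted p = 0.262, limma). The calls of Eda2r and Fbxo40 were lost on leaving out any of 7 and 6 single libraries, with adjusted p up to 0.122 and 0.172 over all alternatives, and those of Fbxo32 and Asb2 held under every one.

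In autophagy, 2 of 24 tested genes were called, against 1.84% of all genes, in opposite directions, although both encode ATG8 proteins of the autophagosome. Gabarapl1 rose from 10.1, 10.5, 8.16 and 7.97 TPM to 20.99, 15.7, 22.1 and 13.9 TPM (log2 change 0.90 ± 0.13, limma adjusted p = 0.00032). Map1lc3a fell from 77.7 ± 6.34 to 54.2 ± 10.1 TPM (log2 change -0.53 ± 0.12, limma adjusted p = 0.0118), a call lost without replicate 4 of either age, with adjusted p up to 0.0851 over all alternatives. For both genes the ages did not overlap. The proteasome subunits had no call among 34 tested.

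Heat shock and chaperone genes gave 3 rises among 22 tested, against 1.18% of all genes. Of the 22, 20 were positive, against 63.6% of all genes, with a median of 0.37 beside 0.06. For 9 of the 22 every adult library was above every young one, against 6.96% of all genes. Cryab, the small heat shock protein alpha-B crystallin, which binds desmin and titin in muscle, had 98.85, 110, 106 and 110 TPM at 5 weeks and 223, 219, 233 and 181 TPM at 25 weeks (log2 change 0.999 ± 0.21, adjusted p = 0.0083, limma). Its ages were about 2-fold apart and did not overlap. Hspb6, another small heat shock protein, had 31.5, 30.2, 33.5 and 41.2 TPM against 198, 153.5, 162 and 40.9 TPM. Replicate 4 at 25 weeks was at the young level and the other 3 were far above it, so the groups overlapped, although the gene was called (log2 change 1.79 ± 0.45, adjusted p = 0.0307, limma). Hspa1l rose from 4.51 ± 0.74 to 7.41 ± 0.28 TPM. The calls of Hspb6 and Hspa1l were each lost on leaving out any of 7 single libraries, with adjusted p up to 0.147 and 0.172 over all alternatives, while Cryab kept its call. Hsp90aa1, the inducible HSP90, was 11.9 ± 1.71 and 17.9 ± 1.40 TPM, without overlap but not called (adjusted p = 0.275, limma).

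Mss51, a mitochondria-associated protein of skeletal muscle, had 1.15, 1.42, 2.21 and 1.22 TPM at 5 weeks and 13.7, 4.92, 18.3 and 8.115 TPM at 25 weeks (log2 change 2.17 ± 0.35, adjusted p = 0.000638, limma). The adult libraries were all higher but differed almost 4-fold among themselves. Cd24a, a surface glycoprotein of many cell types, had 47.1, 54.25, 33.0 and 28.5 TPM against 115, 113, 95.1 and 86.0 TPM (log2 change 1.34 ± 0.17, adjusted p = 2.96e-05, limma). Maob, monoamine oxidase B of the outer mitochondrial membrane, had 3.115, 3.89, 3.55 and 3.48 TPM against 7.77, 9.40, 8.16 and 7.06 TPM (log2 change 1.01 ± 0.12, adjusted p = 1.8e-05, limma). Neither gene's ages overlapped.

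Among secreted and signalling products, Ostn, the peptide osteocrin, rose from 1.07 ± 0.12 to 5.21 ± 3.01 TPM, and Il15, a cytokine made by muscle, from 2.11 ± 0.20 to 5.20 ± 1.09 TPM. Nos1, the neuronal nitric oxide synthase held at the fibre membrane, rose from 2.90 ± 0.64 to 7.74 ± 1.57 TPM. Pde7a, a cyclic AMP phosphodiesterase, rose from 8.28 ± 1.74 to 19.2 ± 3.80 TPM, Rhou, a small GTPase, from 3.26 ± 0.35 to 8.09 ± 1.56 TPM, and Fgfbp1, which releases fibroblast growth factors from matrix, from 3.39 ± 1.29 to 8.25 ± 1.03 TPM, a call lost without 5-week replicate 3 (adjusted p = 0.0524 by limma). Mib1, a ubiquitin ligase of Notch ligands, rose from 4.24 ± 1.73 to 13.5 ± 0.79 TPM and Cyfip2, a subunit of the actin-regulating WAVE complex, from 0.209 ± 0.081 to 2.30 ± 0.59 TPM. In each of these 8 genes the 4 adult libraries were above the 4 young ones. Tgfb3, a TGF-β ligand, rose from 5.20 ± 0.33 to 8.24 ± 1.45 TPM (log2 change 0.56, adjusted p = 0.0355, limma), and Smad7, the inhibitor of that pathway, from 0.832 ± 0.057 to 1.34 ± 0.17 TPM (log2 change 0.35, adjusted p = 0.0442, limma), the 1 call among 12 tested genes of the myostatin and activin list, against 1.18% of all genes. Tgfb3 lost its call without a filter on TPM and on leaving out any of 5 single libraries, with adjusted p up to 0.164 over all alternatives. Tgfb1 and Tgfb2 were not called, and Smad7 lost its call on leaving out any 1 of the 8 libraries, with adjusted p up to 0.169 over all alternatives.

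In carbohydrate metabolism, 2 of 29 tested genes were called, against 1.84% of all genes. Ugp2, which makes UDP-glucose for glycogen, rose from 168 ± 17.0 to 235 ± 15.4 TPM (log2 change 0.49, adjusted p = 0.0473, limma), a call lost on leaving out any 1 of the 8 libraries, with adjusted p up to 0.205 over all alternatives. Pgk1, a glycolytic kinase, fell from 277 ± 28.3 to 198 ± 16.1 TPM (log2 change -0.48, adjusted p = 0.0197, limma), a call lost on leaving out any of 5 single libraries, with adjusted p up to 0.0811. Its processed copy Pgk1-rs7 was called in the same direction, a call lost on leaving out any of 5 single libraries, and may share reads. The paired regulators of glucose uptake Tbc1d1 and Tbc1d4 rose by 0.68 and 0.61 on the log2 scale. Of the larger metabolic lists, 34 fatty acid genes, 53 nuclear subunits of oxidative phosphorylation and 13 protein genes of the mitochondrial genome gave no call, with medians of 0.27, -0.02 and 0.19, of which the second changed sign under some alternatives and the third was 0.114 to 0.316. The mitochondrial transfer RNA genes mt-Tg and mt-Tr rose by 2.34 and 2.06 on the log2 scale, from 2.66 ± 0.79 to 17.4 ± 3.21 and from 3.14 ± 0.58 to 16.3 ± 2.21 TPM. The calls were lost on leaving out any of 7 and 8 single libraries, with adjusted p up to 0.107 and 0.141 over all alternatives. Nrap, a protein of the myotendinous junction, rose from 144 ± 14.3 to 217 ± 22.2 TPM and lost its call on leaving out any of 7 single libraries, with adjusted p up to 0.172 over all alternatives.

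None of 13 tested genes of the list of MHC class II and antigen presentation was called. Besides class II genes, that list holds H2-K1, H2-D1, B2m, Tap1, Tap2, Psmb8 and Psmb9, which are not class II genes. All 13 had positive values, against 63.6% of all genes, with a median of 0.42, and 4 had every adult library above every young one, against 6.96% of all genes. Without 25-week replicate 1 the median was 0.263 and 12 were positive, and under size-factor scaling 11 were positive. With size factors and with array weights 4 of the 13 were called higher, and 2 when rescaled without mitochondrial and 7SL genes or without 25-week replicate 4. With 5 other alternatives 1 was called. Cd74, the invariant chain, had 16.8, 11.0, 24.2 and 19.1 TPM at 5 weeks and 75.7, 37.6, 29.997 and 27.0 TPM at 25 weeks (adjusted p = 0.0761, limma). Replicate 1 at 25 weeks was the highest. H2-Q6, a nonclassical class I gene with close copies, rose from 0.688 ± 0.201 to 2.95 ± 0.97 TPM. Of 13 macrophage markers none was called, with summed levels of 80.2 to 84.6 TPM at 5 weeks and 79.3 to 135 TPM at 25 weeks, and of 9 T and NK cell markers none reached the level needed for the test. No cell cycle gene was called among 32 tested, with a median of -0.05 that changed sign under some alternatives. Mki67, the proliferation marker, was 0.127, 0.223, 0.352 and 0.792 TPM and 0.204, 0.104, 0.207 and 0.423 TPM, low and overlapping. At adjusted p under 0.05 there was also no call in the marker lists of endothelium, pericytes, adipocytes, erythrocytes, Schwann cells or satellite cells. The summed adipocyte markers ranged from 119 to 535 TPM at 5 weeks and 257 to 643 TPM at 25 weeks. Of these 11 markers 10 were positive with a median of 0.53, and 7 with a median of 0.123 without 5-week replicate 2. The summed erythrocyte markers ranged from 263 to 584 TPM and from 363 to 1271 TPM. All 5 tested were positive, against 63.6% of all genes, with a median of 0.91.

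The same interval was also fitted in WT males, to set the sexes side by side. There 3661 genes were called, 28.6% of those tested, of which 332 (2.59%) rose and 3329 (26%) fell. Of the 236 genes called in females, 225 had the same sign in males and 162 were called in the same direction, which is 68.6% of the female calls and 4.43% of the male ones. The test of the difference itself, the female minus the male change, called 324 genes, 2.53% of those tested, 305 of them (2.38%) positive, and 297 of the 305 are genes that fell in males. Its median over all genes was 0.27. The difference between the sexes was called for 679 genes with a pseudocount of 0.1, 2563 in its own libraries and 3702 with array weights. Of these, 96.9%, 98.4% and 98.5% were positive. When TPM was rescaled without mitochondrial and 7SL genes, the median was 0.10 and 65 genes were called, 45 positive and 20 negative. Rescaled also without genes that overlap 7SL genes, 77 were called, 52 positive and 25 negative. The mitochondrial share was 44.6, 44.9, 46.9 and 32.009% in WT males at 25 weeks and 31.9 to 40.97% at 5 weeks. Its part in the count was not tested beyond these rescalings. Without 5-week female replicate 1 the count was 62, without replicate 2 it was 87 and without replicate 3 it was 205. Without 25-week female replicates 1, 2 and 3 it was 118, 145 and 112. Of the 324, 21 were called in females too.

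**Figure D4:**
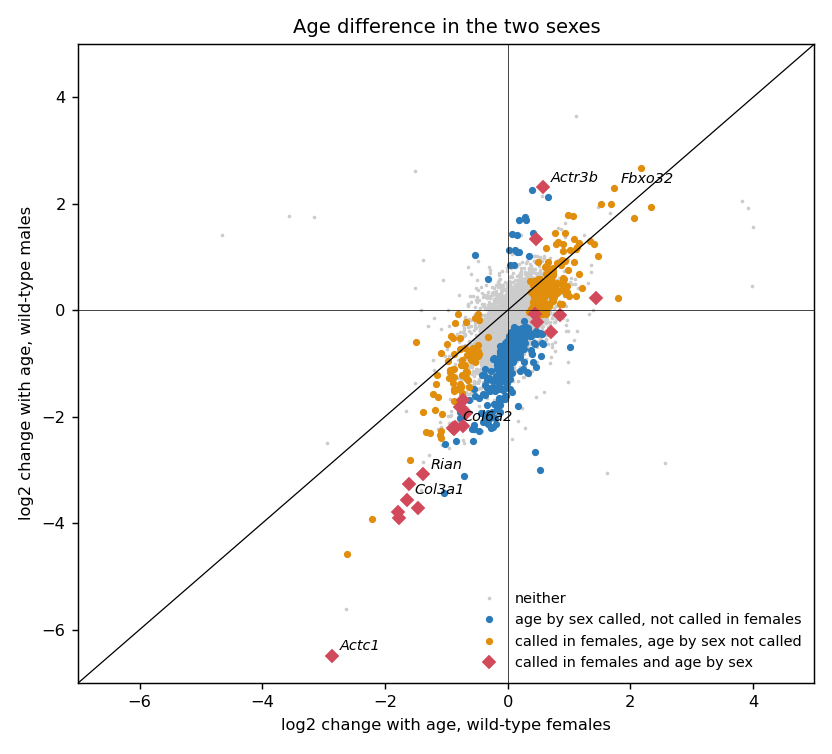
The log2 change from 5 to 25 weeks in WT females (horizontal) against that in WT males (vertical), 1 point a gene, with the diagonal of equal change. Colours mark the genes called in females, those called for the difference between the sexes, and the 21 called for both. Actc1 lies farthest below the diagonal among the named genes, at -2.86 in females and -6.49 in males.

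Actc1 was the gene with the largest of the named differences between the sexes. In males it went from 2134 ± 590 to 24.5 ± 14.8 TPM, a log2 change of -6.49, so males started about 3-fold above females and ended below them. The difference was 3.63 ± 0.51 (SE, limma adjusted p = 0.000334). For Col6a2 males went from 41.8 ± 8.25 to 8.41 ± 2.03 TPM, and the difference was 1.33 ± 0.19 (limma adjusted p = 0.000334). Col3a1 went from 446 ± 79.7 to 39.1 ± 17.7 TPM in males (difference 1.91 ± 0.44, limma adjusted p = 0.0237). Of the 27 tested collagen genes, all 27 had a more negative log2 change in males than in females, as had 88% of all genes tested, whose median difference was 0.27. For 8 the difference was called, all positive, against 2.38% of all genes. For Col1a1 and Col1a2 it was not (limma adjusted p = 0.0958 and 0.066).

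Ccnd1, cyclin D1, stood at 2.51 ± 0.45 and 2.21 ± 0.21 TPM in females and went from 8.78 ± 2.14 to 1.55 ± 0.05 TPM in males (difference 1.79 ± 0.30, limma adjusted p = 0.0017). Part of its exons are shared with Oraov1. The peptide gene Apln went from 0.9445 ± 0.483 to 0.416 ± 0.196 TPM in females, and from 4.19 ± 0.67 to 0.359 ± 0.116 TPM in males (difference 1.496). In the cell cycle list 12 of 32 genes were called for the difference between the sexes, all positive, against 2.38% of all genes. The list's median was -0.76 in males and -0.05 in females. In the growth hormone and IGF axis 4 of 19 genes were called for the difference between the sexes, against 2.53% of all genes. Sex differences by list, as for these genes and the collagens, and by single gene were not examined under the rescalings or with libraries left out.

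In the other direction, Actr3b, a subunit form of the actin-nucleating Arp2/3 complex, was 0.232, 0.133, 0.206 and 0.171 TPM in young females and 1.46, 0.684, 0.4055 and 0.684 TPM in adult ones, while males went from 0.535 ± 0.083 to 6.59 ± 0.57 TPM. The difference was -1.73 ± 0.16 (limma adjusted p = 1.8e-07). Tmem132b was 0.0049 ± 0.0063 and 0.118 ± 0.075 TPM in females and 0.011 ± 0.008 and 1.15 ± 0.15 TPM in males. It was below 1 TPM in every WT female library, and the filter admitted it through other libraries. Its values are therefore given as a description. Amd1, the rate-limiting enzyme of spermidine synthesis, was 33.2 ± 7.13 and 39.8 ± 2.64 TPM in females and 61.1 ± 7.82 and 213 ± 58.0 TPM in males (difference -1.48 ± 0.23, limma adjusted p = 0.000755). The close copies Amd2 and Amd-ps3 showed the same pattern, and reads may be split among the 3.

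**Figure D5:**
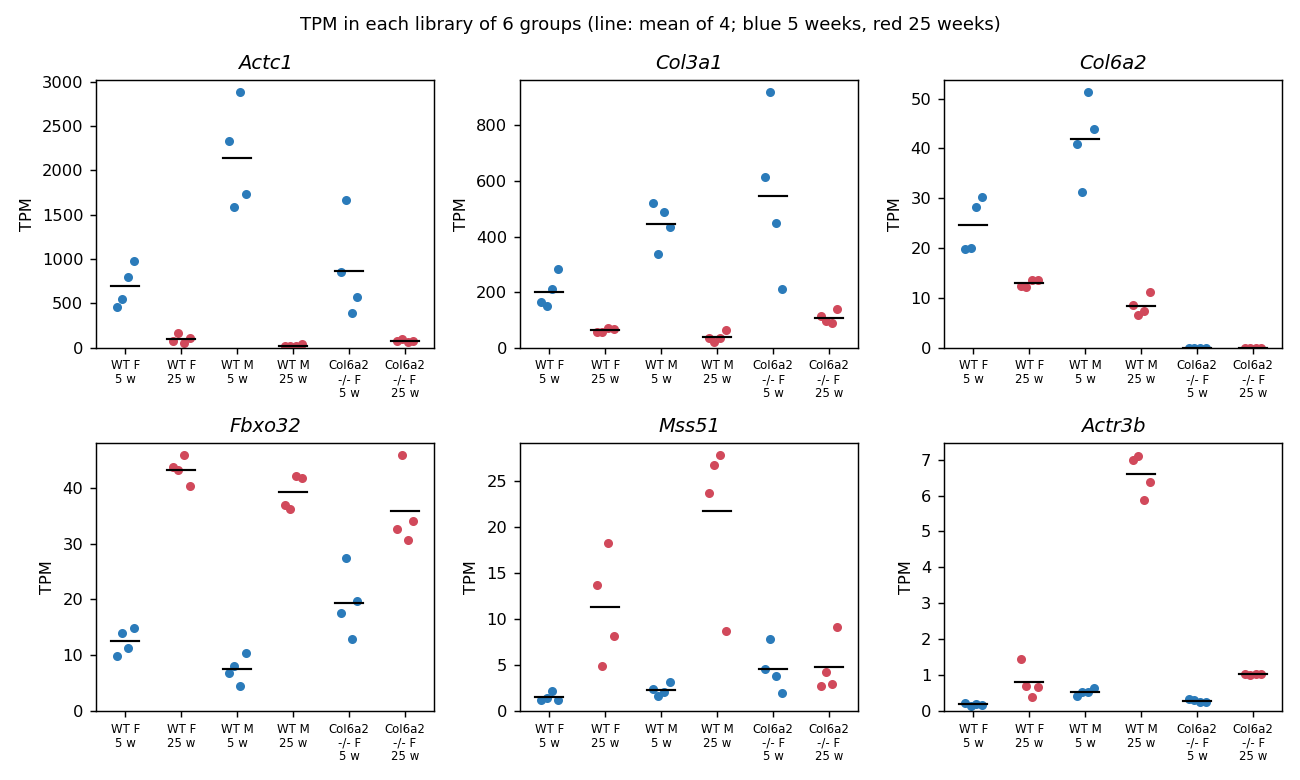
TPM of 6 genes in each library of 6 groups, blue at 5 weeks and red at 25 weeks, with a line at the mean of 4. Actc1, Col3a1 and Col6a2 start higher in WT males than in WT females, Actr3b ends at 6.59 TPM in males against 0.808 TPM in females, and Col6a2 is near 0 in Col6a2-/- females.

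In Col6a2-/- females the age interval gave 961 calls, 7.5% of the genes tested, with 222 (1.73%) higher and 739 (5.77%) lower, and 223 of the 236 genes had the same sign there. Both comparisons use different libraries. Of the 236, 144 were called in the same direction, 61% of the WT calls and 15% of the Col6a2-/- ones. Col6a2 itself was 0.00603 ± 0.00983 and 0.0166 ± 0.0121 TPM in those females. The WT minus Col6a2-/- difference of the age change called 15 genes, 0.117% of those tested, all positive. It called 7 with a pseudocount of 0.1, all positive, and 4 in its own libraries, of which 3 were positive. With size factors 26 of 28 were positive, with quantile normalization 28 of 30 and with array weights 237 of 250. Of the 15, 10 were below 1 TPM in all 8 WT female libraries. The 9 of these that were below 1 TPM in every WT library entered the test only through Col6a2-/- libraries, where they are high, and the values of the 10 are given as a description. Among these, Mymx and Mymk, the fusion factors of muscle precursors, were at most 0.164 and 0.610 TPM in the 8 WT female libraries, and went from 9.80 ± 5.87 to 0.311 ± 0.119 TPM and from 4.53 ± 2.39 to 0.219 ± 0.257 TPM in Col6a2-/- females. Myl4, an embryonic light chain that was above that level in WT, was 2.75 ± 0.23 and 3.52 ± 1.69 TPM in WT females and 34.6 ± 14.7 and 4.83 ± 1.79 TPM in Col6a2-/- females. Chrng, the fetal subunit of the acetylcholine receptor, was at most 0.0244 TPM in each WT female library. Aldh3a1, an aldehyde dehydrogenase, was at most 0.236 TPM in WT females and went from 17.4 ± 12.1 to 0.120 ± 0.082 TPM in Col6a2-/- ones. None of these 5 was called with age in WT females.

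Mss51 and Fbxo32 in Col6a2-/- females are given as values. Mss51 was 4.53 ± 2.47 and 4.78 ± 2.99 TPM there, and the difference of the age changes was 2.12 ± 0.50 (limma adjusted p = 0.106). Fbxo32 was 19.4 ± 6.01 and 35.85 ± 6.86 TPM (difference 0.84 ± 0.29, limma adjusted p = 0.44). Neither difference passed the test.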

How the data were processed

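RNA of quadriceps cryosections was sequenced after TruSeq library preparation, paired-end, from samples with a RIN of at least 8, with a MiSeq named as the instrument, per the labels' protocols. FastQC, MultiQC, Trimmomatic, HISAT2, SAMtools and StringTie and the builds GRCm38 and mm10 are named in the submitters' processing notes, without versions, roles or order; the use of strand is not given in the sources used here. The deposited tables give, per the file headers, TPM, FPKM and coverage for each gene, as computed by the authors. TPM of repeated rows was summed per gene identifier. FPKM and coverage, as deposited by the authors, served only to infer relative depth. No read counts were used, so no interval for counting error could be given.

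Genes that reached 1 TPM in 4 or more of the 32 libraries were tested on log2(TPM + 1) with limma 3.58.1 in R 4.3.3 (lmFit, eBayes with trend, two-sided), with 1 mean for each of 8 groups and Benjamini-Hochberg adjustment over all 12817 genes. All 32 libraries enter, so that the contrasts share an estimate of the spread. The code was checked on simulated data. Of the 53801 identifiers, 53706 are in GENCODE M21, and 254 share a symbol. A gene is called uncertain where at least 20% of its exons lie on another gene with a mean of at least 1 TPM.

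Genes were named by rule: members of the gene lists; among called genes without overlap and with a mean of at least 5 TPM in the higher group, the 12 largest rises and falls; the 5 smallest p and the 5 largest changes in TPM in each direction; and the 5 smallest p in each direction for each difference between groups. Aqp4, Hacd1, Il15, Tgfb1, Tgfb2, Tgfb3, Tbc1d1, Tbc1d4, H2-Q6, Gm47299, Mylf-ps, Pgk1-rs7, Nqo1, Aldh1a1, Klhl38 and Ctsd were added after their values were seen. The comparison and the lists were chosen with earlier results of these data known. Per the labels' protocols each group holds 4 mice. CArG boxes were searched in RefSeq promoter windows of 250 bases; 5 other short motifs were searched too and are not reported. Alternatives changed the pseudocount, the filter, the scaling, the libraries in the fit, the replicate block and array weights. Others left out 1 WT female library each. Rescaling also without genes that overlap 7SL genes was chosen after seeing the data. So was leaving out libraries for the shares of TPM and depth. Figures were drawn with matplotlib 3.10.9.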

Additional observations from a re-analysis of the deposited data

Results flagged for a closer look

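In 8 of 180 groups of 4 libraries examined, 1 library lay far from the other 3 by Dixon's criterion, and chance gives about 1 in 20. Rian in 25-week replicate 2 was 12.87 TPM, where the other 3 were 13.7 to 13.9 TPM. Tmem132b in 25-week replicate 3 was 0.2291 TPM, Myl4 in 25-week replicate 3 was 6.03 TPM, Chrng in 5-week replicate 4 was 0.02442 TPM and Adamts2 in 5-week replicate 4 was 4.987 TPM. H2-Q6 and Gm47299 in 5-week replicate 2 were 0.3872 and 0.004515 TPM. Inferred depth in 25-week replicate 4 was 10.38 gigabases.

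The change with age differed between the sexes for 324 genes in the fit as reported. The values of single genes below are from that fit only and were not examined under the rescalings. Among the genes named, the female minus male difference on the log2 scale was 3.63 for Actc1, 2.25 for B230312C02Rik, 2.13 for C130080G10Rik, 2.01 for Gm47302, 1.91 for Col3a1, 1.79 for Ccnd1, 1.70 for Rian, 1.65 for A930003A15Rik and 1.496 for Apln. It was 1.44 for Col4a1, 1.36 for Col15a1, 1.33 for Col6a2, 1.33 for Loxl2, 1.25 for Col4a2 and 1.203 for Cyfip2. Negative differences were -1.73 for Actr3b, -1.51 for Amd2, -1.48 for Amd1 and -1.41 for Amd-ps3. For Tmem132b, which was below 1 TPM in every WT female library, the difference of -0.93 is given as a description with no test.

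The difference between WT and Col6a2-/- females in the change with age passed the threshold for 15 genes, of which 10 were below 1 TPM in every WT female library. Among the others, the WT minus Col6a2-/- difference was 2.76 for Myl4 and 1.76 for Eda2r. Among the 10, which the filter admitted through libraries where they are high, it is given as a description with no test, at 3.88 for Aldh3a1, 2.82 for Mymx, 1.81 for Mymk and 1.30 for Chrng.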

How the results depend on the processing

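The 236 calls by age in WT females were 207 to 354 under a pseudocount of 0.1, no filter, rescaling without mitochondrial and 7SL genes (also with the genes on 7SL genes, 331) and a fit of the 8 libraries alone, and 183 with a filter of 5 TPM. They were 585 with median-of-ratios size factors, 523 with quantile normalization and 1113 with array weights. The share that rose went from 64% to 48.2% and 48.8% under the first pair of these. Leaving out 1 library gave 128 to 241, with 149, 128 and 138 without 5-week replicates 1, 3 and 4 and 132 without 25-week replicate 1. The sex difference, 324 genes, was 679 with a pseudocount of 0.1, 88 without a filter, 143 with quantile normalization, 65 and 77 with the rescalings, 2563 in its own 16 libraries and 3702 with array weights; positive calls were 94.1% as reported and 78.4%, 75.7%, 69.9%, 69.2% and 67.5% without a filter, with size factors, quantiles and the rescalings. Left-out WT female libraries gave 62 to 372. The genotype difference, 15 genes, was 7 with a pseudocount of 0.1, 23 without a filter and 8 with a 5 TPM filter. It was 28 with size factors, 30 with quantiles, 4 in its own libraries and 250 with array weights. With a WT female library left out it was 11 to 14. No male or Col6a2-/- library was left out. The positive share of the genotype difference in its own libraries was 75%.

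The deviations of same-numbered libraries of the 2 ages had correlations of 0.0377, 0.259, 0.06 and 0.142, and only replicate 2 matched its own number best. Such correlations cannot show whether same-numbered mice shared a litter or day. The numbers were not used as pairs in the fit as reported. With the replicate block the calls were 227 by age, 334 for the sexes and 20 for the genotypes.

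Of 72 named genes called with age, 37 kept the call under all 18 alternatives and 4 (Cyfip2, Gm5111, Col4a5 and H2-Q6) under the 17 that tested them. The filter of 5 TPM left 65 of the 72 tested. None of the 72 changed direction where it was tested. Left-out libraries gave differences of -2.69 to -0.626 for the mitochondrial share, 1.63 to 2.94 for the 7SL share and -3.81 to -2.0 for depth. The cause of these shifts was not tested. Without counts, the depth behind a low value is unknown.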

Other observations

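Clock genes, ribosomal proteins, interferon-stimulated genes and neuromuscular junction genes gave no call in WT females by limma, among 19, 76, 24 and 15 tested, with median log2 changes of 0.04, 0.08, 0.02 and -0.11. Under some alternatives the medians of the clock, interferon and junction genes changed sign. The antioxidant enzyme Nqo1 rose from 5.21 ± 1.34 to 9.79 ± 0.48 TPM and Aldh1a1, a retinaldehyde dehydrogenase, from 37.0 ± 7.13 to 63.1 ± 6.14 TPM, without overlap in either (adjusted p = 0.00042 and 0.00493, limma). Klhl38, a kelch protein of muscle, rose from 5.96 ± 0.88 to 13.5 ± 1.14 TPM (log2 change 1.06, adjusted p = 0.00452, limma). Ctsd, a lysosomal protease, rose from 128 ± 9.30 to 178 ± 20.6 TPM (adjusted p = 0.0176, limma), a call lost on leaving out any of 3 single libraries, with adjusted p up to 0.107 over all alternatives, and 34.4% of its exons lie on another transcript, AC034099.1. These 4 genes were chosen after their values were seen.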
